A study of Mus musculus with 4 samples.

Results

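Nuclear-encoded genes of mitochondria and energy metabolism were examined in a list of C-to-U editing sites from young mouse cortex. Members were the rows whose gene symbol belongs to the respiratory complexes, ATP synthase, mitochondrial protein import, the mitochondrial ribosome, pyruvate dehydrogenase and isocitrate dehydrogenase, glycolysis, or the voltage-dependent anion channels. The symbol alone decided membership, by name prefix or by name, and no measured value entered the rule. The rule itself was chosen with earlier results of these data known. In this way 108 of 28412 listed sites were chosen, and they carried 42 of the 4206 gene symbols in the list.

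The sites come from scDART-seq, in which the cytidine deaminase APOBEC1, fused to the m6A-binding YTH domain, converts a cytosine beside N6-methyladenosine (m6A) to uracil. The 4 samples are sublibraries of 1 pool of fixed cortical cells that held APOBEC1-YTH cells and cells with APOBEC1-YTHmut, whose YTH domain is mutated, with replicates 1 and 2 mixed in every sublibrary. All mice received tamoxifen at 20 mg/kg every 24 h for 5 days, starting at 6 to 8 weeks of age, and cortex was collected 7 days after the last dose. Cells were freed from the tissue by papain and received their barcodes by split-pool ligation (Parse). The labels state neither the promoter behind the transgenes nor how many animals were pooled. The single list of the series names no sample and is not split by sublibrary, genotype or kind of cell. Which cells entered it, and whether those with APOBEC1-YTHmut did, is not stated. No value below therefore compares genotypes or animals, there are no replicates, and read depth is unknown. Each site carries an unlabelled whole number of 3 or more, called the site count here. Markers of the labelled tissue were present in the list, with a site for 4 of 5 markers of cortical excitatory neurons and 5 of 5 each of astrocytes, oligodendrocytes and endothelial cells. Inhibitory neurons had 2 of 5 and microglia 2 of 5, and Pvalb and P2ry12 were not listed.

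Neurons draw most of their ATP from oxidative phosphorylation. Glycolysis splits glucose to pyruvate in the cytosol, pyruvate dehydrogenase feeds it into the tricarboxylic acid (TCA) cycle in the mitochondrion, and the electron carriers made there drive complexes I to IV, whose proton gradient powers ATP synthase. Nearly all proteins of this chain are encoded in the nucleus, translated in the cytosol and imported through the TOM and TIM complexes. On mRNA, m6A is known to gather near stop codons and in 3' UTRs, within the motif DRACH (D is A, G or T; R is A or G; H is A, C or T), where the methylated A precedes the C that APOBEC1 edits.

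The sequences around the 5 member sites with the highest counts are shown first, because they differ in base composition and region. Each runs 5' to 3' on the strand of the gene in mm10 coordinates, was read from the GENCODE M21 transcripts, and has capitals on the 5 bases from 3 before to 1 after the edited C.
Ndufa10, count 57, 3' UTR, chr1:92439692-92439712, minus strand: aaaaatcTAACAaaaagagtc
Uqcrc2, count 46, 3' UTR, chr7:120659209-120659229, plus strand: aaaaaaaAAACTtaaaagcat
Pfkp, count 39, CDS, chr13:6621967-6621987, minus strand: tcggcggGGACGgaagtctca
Gapdh, count 33, CDS, chr6:125162549-125162569, minus strand: cagagctGAACGggaagctca
Cox20, count 27, 3' UTR, chr1:178322671-178322691, plus strand: aaaactcAAACGtgtgtaaac
Of these 5, Ndufa10 and Uqcrc2 lay in DRACH, while Pfkp, Gapdh and Cox20 had a G after the edited C and so lay in RAC, the 3 bases R, A and C of that motif, but outside DRACH. The flanking 20 bases held 65% A at Ndufa10 and 75% A at Uqcrc2, against 20% at Pfkp and 35% at Gapdh.

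Whether these genes were listed at the usual rate was examined first. By the rule, 244 annotated protein-coding genes are members, and 42 of them had a site, or 17.2% (exact binomial 95% interval 12.7 to 22.55), while 17.5% of all 22028 annotated protein-coding genes had one. The member share was thus near the background. At a site count of 10 or more, 11 members were left, 4.51% (2.27 to 7.92) against a background of 7.22%. Levels of the mRNAs themselves were not measured here, and a gene with no listed site may be unexpressed, thinly read, unedited or filtered.

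The roles differed in how many genes were listed. The TCA cycle and pyruvate dehydrogenase group held only Idh and Pdh genes, and 6 of its 9 had a site (66.7%, interval 29.9 to 92.5). Glycolysis and lactate had 7 of 22 (31.8%, 13.9 to 54.9) and ATP synthase 5 of 17 (29.4%, 10.3 to 56.0). Protein import had 6 of 26, complex IV 5 of 27, complexes II and III 2 of 8 each and the outer membrane channels 1 of 3. Complexes I, II and IV as counted here include assembly factors besides subunits. At the low end stood complex I with 3 of 46 (6.52%, 1.37 to 17.9) and the mitochondrial ribosome with 5 of 78 (6.41%, 2.11 to 14.3). The interval of the mitochondrial ribosome lay below the background of 17.5% and that of the TCA cycle group above it, and the others held it. These intervals cover counting error only, and the roles were not tested against each other. Median 3' UTRs were 197 nt in complex I, 328 nt in the mitochondrial ribosome and 566 nt in the TCA cycle group. Of all protein-coding genes, 4.13% had a site with a 3' UTR below 250 nt and 9.56% with 250 to under 500 nt. With 500 to under 1000 nt it was 14.96%. The part of 3' UTR length in the role shares was not tested.

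**Figure D1:**
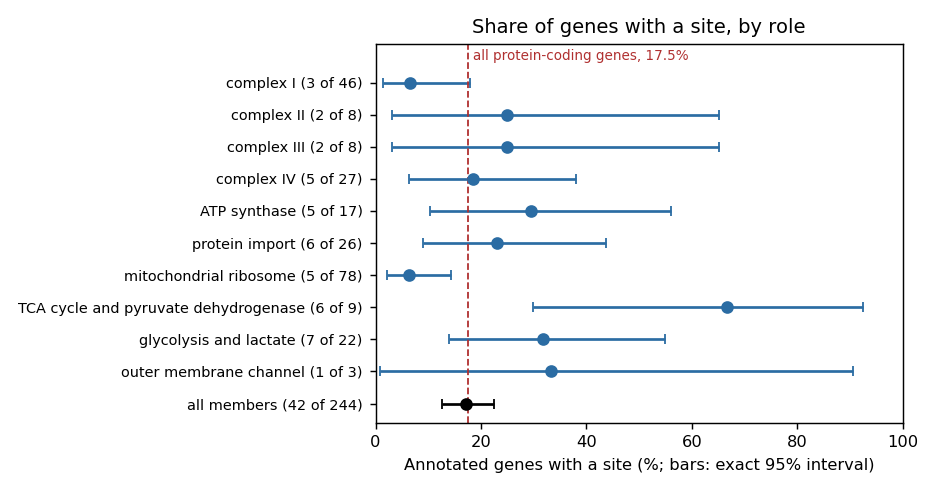
Share of annotated protein-coding genes with a listed site in each role group (points, with exact binomial 95% intervals as bars, number of genes in brackets), and in all 42 of 244 members (black). The dashed line is the 17.5% of all protein-coding genes. The bar of the mitochondrial ribosome lies below it, and that of the TCA cycle group, which holds only Idh and Pdh genes, above it.

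Few sites per gene were the rule. The median member with a site had 1 site, while the median over all 4206 symbols was 2. In 24 of the 42 members (57.1%) there was 1 site, against 36.9% of all symbols, and 1 member (2.38%) had 10 or more, against 16.9%. These transcripts were shorter, with a median of 1906 nt in members with a site against 4336 nt in all protein-coding genes with a site. Per kb of exon the order of the medians was the other way round, at 0.493 sites in members with a site and 0.431 in all protein-coding genes with a site. Only genes with at least 1 site entered, so the lowest possible density is higher in genes with shorter exons. Exon length had medians of 3644 nt in members with a site and 6310 nt in all such genes. The order of the densities therefore does not show denser editing in members. Sites were concentrated in the 8 members with 5 or more, which held 58 of the 108 sites (53.7%): Pdha1, Eno2, Pfkp, Gapdh, Aldoa, Hk1, Pkm and Vdac1. Of these 8, 6 are glycolytic genes.

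**Figure D2:**
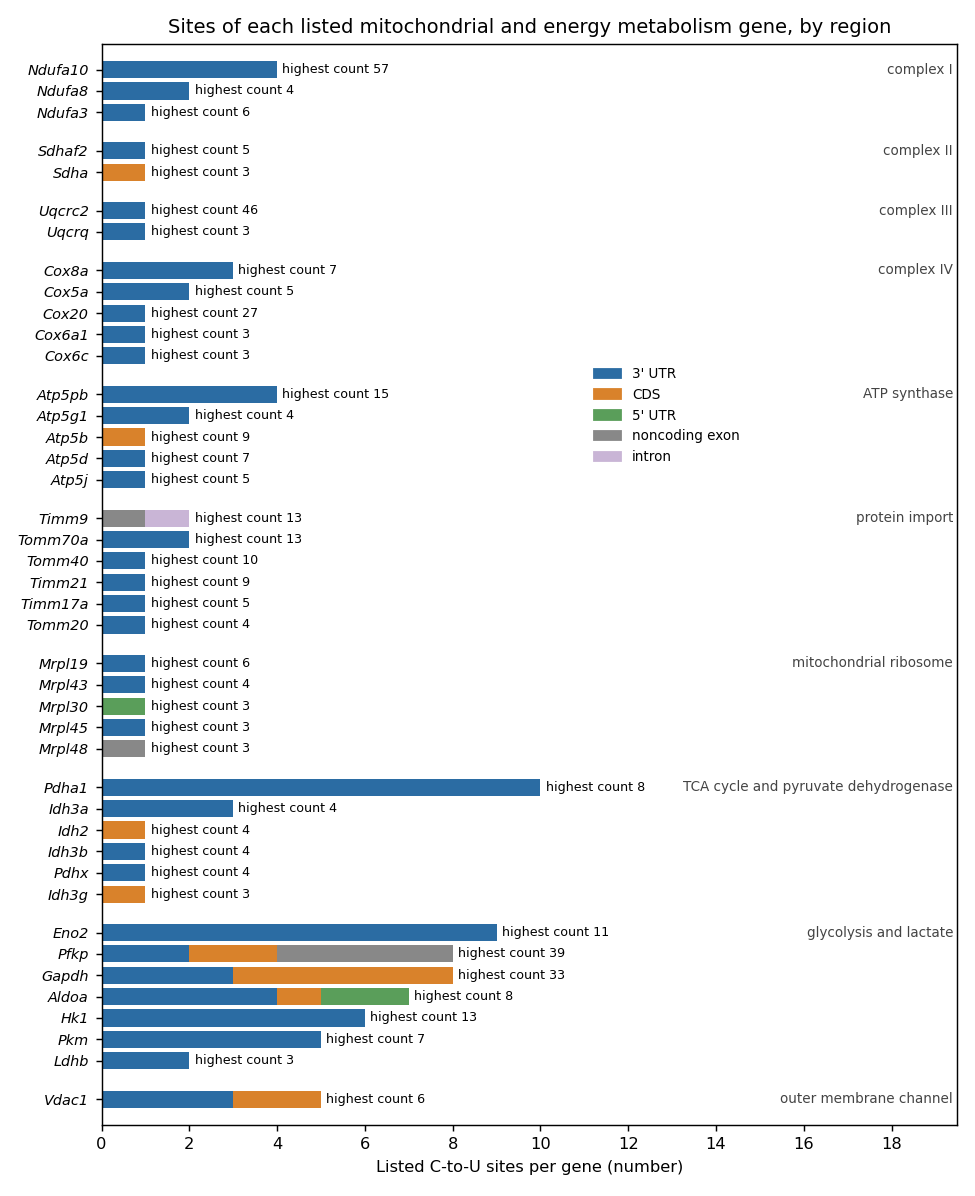
Number of listed sites (x axis) in each of the 42 members with a site, grouped by role, with colours for the region of the transcript and the highest site count printed at each bar. Pdha1 has 10 sites and Eno2 9, all in the 3' UTR, whereas most members of the respiratory complexes have 1 or 2.

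In complex I, the entry point of electrons from NADH, 3 accessory subunits were listed. Ndufa10 had 4 sites, at 55, 64, 85 and 137 nt after the stop codon, with counts of 3, 3, 5 and 57, so the most distal of them held most of its summed count. Ndufa8 had counts of 4 and 3 at 55 and 129 nt after the stop codon. Ndufa3 had a count of 6 at a place that is 3' UTR in a nonsense-mediated decay transcript and CDS in the longest coding one. No Ndufs or Ndufv gene, among which are the nuclear-encoded catalytic core subunits of complex I, was listed.

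Complex II, which oxidises succinate, had 1 site in the CDS of its flavoprotein Sdha with a count of 3, and 1 in the 3' UTR of Sdhaf2, which helps attach the flavin to Sdha, with a count of 5. In complex III, the core protein Uqcrc2 had a count of 46 at 1 site 115 nt after the stop codon, and the small subunit Uqcrq a count of 3. The Uqcrc2 site also lies in an exon of Pdzd9 on the opposite strand, a gene with 1 listed site.

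In complex IV, cytochrome c oxidase, all 8 sites of the 5 listed genes were in the 3' UTR. Cox8a had counts of 4, 7 and 3 at 28, 33 and 214 nt after the stop codon. With 4.85 sites per kb of exon it had the densest sites of all 42 members, and with 619 nt also the shortest exon length. Cox5a had counts of 3 and 5, and Cox6a1 and Cox6c 1 site each with a count of 3. Cox20, an assembly factor for the mitochondrially encoded subunit Cox2, had a count of 27 at 65 nt after the stop codon. That position also lies in an exon of Hnrnpu, an RNA-binding protein gene on the opposite strand with 34 listed sites of its own.

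ATP synthase was represented by 5 genes. Atp5pb, a peripheral stalk subunit, had 4 sites at 205, 217, 263 and 284 nt after the stop codon, with counts of 15, 7, 3 and 5. Atp5g1, which encodes the membrane ring subunit c, had counts of 3 and 4 at 98 and 101 nt. Atp5b, the catalytic beta subunit, had its only site in the CDS with a count of 9, while Atp5d and Atp5j had 3' UTR sites with counts of 7 and 5. Over the respiratory complexes and ATP synthase together, 17 of 106 genes were listed, 16.04% (interval 9.63 to 24.4), which is near the background of 17.5%. These 106 genes include assembly factors, such as the Ndufaf and Sdhaf genes. Of their 28 sites, 2 were in the CDS and 26 in the 3' UTR, where all listed sites had 26.04% and 61.9%.

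The import machinery had 8 sites in 6 genes. Tomm70a, an outer membrane receptor for precursor proteins, had counts of 13 and 3 at 21 and 86 nt after the stop codon, Tomm40, the pore of the TOM complex, 1 site with a count of 10, and the receptor Tomm20 1 with a count of 4. Timm9, a small chaperone of the intermembrane space, had counts of 13 and 9 at 2 places 20 nt apart, the first in a retained-intron transcript and the second in an intron, so neither lay in an exon of a coding transcript. Timm21 and Timm17a, both of the TIM23 complex, had counts of 9 and 5. Of the mitochondrial ribosome, 5 large-subunit genes had 1 site each, with counts of 6 in Mrpl19, 4 in Mrpl43 and 3 in Mrpl30, Mrpl45 and Mrpl48. No gene of the small subunit (Mrps) was listed.

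Pdha1, the E1 alpha subunit of pyruvate dehydrogenase on the X chromosome, had the most sites of all members. Its 10 sites were all in RAC and all in the 3' UTR. They formed a cluster of 5 between 64 and 103 nt after the stop codon with counts of 8, 3, 7, 8 and 6, a pair at 426 and 472 nt with counts of 3 and 4, and 3 more at 825, 865 and 890 nt with counts of 5, 3 and 3. No site stood out, as the counts ran from 3 to 8. Of these, 2 with counts of 4 and 5 also lie in an exon of Map3k15 on the opposite strand, which had no listed site. The window of the Pdha1 cluster shows a pair of edited cytosines 3 nt apart, of which the downstream one is marked.
Pdha1, count 8, 3' UTR, chrX:160123685-160123705, minus strand: acccagaCAACAaaaggcttg
Pdhx, which binds the E3 component of the same complex, had 1 site with a count of 4. All 3 subunits of the NAD-dependent isocitrate dehydrogenase were listed, Idh3a with counts of 4, 3 and 3 between 393 and 420 nt after the stop codon, Idh3b with a count of 4 and Idh3g with a count of 3. The mitochondrial NADP-dependent Idh2 had a count of 4 in its CDS, and the cytosolic Idh1, Pdhb and Pdha2 had no site.

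Glycolytic genes held 45 of the 108 sites. Hk1, the main hexokinase of brain, which phosphorylates glucose, had 6 sites in its 3' UTR. Of these, 4 lay between 57 and 65 nt after the stop codon with counts of 3, 10, 7 and 3, and a pair lay at 440 and 442 nt with counts of 13 and 3. Its paralogs Hk2 and Hk3 had none. Pfkp, the platelet-type phosphofructokinase of the committed step, had the highest summed count of all members, 87 over 8 sites. Its strongest site, with a count of 39, lay in the CDS in exon 4 of 22, and a second in exon 5 had a count of 4. Another 4 Pfkp sites, with counts of 5, 3, 14 and 12, lay only in exons of retained-intron transcripts, and the 2 in the 3' UTR had counts of 6 and 4. The Pfkp site with a count of 12 was the only member site in GGACT. Pfkl and Pfkm, the liver and muscle types, and the 4 regulatory Pfkfb genes had no site.

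Downstream in the pathway, Aldoa, which splits fructose bisphosphate, had 7 sites. Counts in its 3' UTR were 5, 3, 8 and 5 at 12, 32, 169 and 172 nt after the stop codon, with a count of 7 in the CDS and of 4 at 2 places of the 5' UTR that lie 12 nt apart. Eno2, the neuron-specific enolase, had 9 sites in its 3' UTR with counts of 3 to 11. Of these, 6 lay between 15 and 161 nt after the stop codon and 3 between 742 and 899 nt. Pkm, pyruvate kinase, had 5 sites in its 3' UTR with counts of 4, 3, 3, 7 and 3 from 365 to 523 nt after the stop codon, so none lay in the part nearest the stop codon. Ldhb, the lactate dehydrogenase subunit typical of heart and neurons, had counts of 3 at 49 and 98 nt. Ldha, Pgk1 and Eno1 had no site.

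Gapdh differed from the other glycolytic genes in that 5 of its 8 sites were in the CDS. Its counts were 33, 6, 3, 5 and 3 in the CDS and 3, 3 and 7 in the 3' UTR. For 6 of the 8, the surrounding 51 bases occur unchanged in annotated transcripts of 4 to 67 other annotated genes, including 46 for the site with a count of 33. The 2 sites without such a copy, at 31 and 33 nt after the stop codon, had counts of 3. Gapdh values are therefore uncertain, because the treatment of reads with several equal matches is not stated. No other member had a site in such a shared window among the 94 sites for which a full window could be read. Along whole transcripts, 82.4% of the 51-base windows of Gapdh were shared, 71.9% of those of Eno1, 67.9% of Pgk1 and 47.3% of Vdac3. The same limit may reach the other roles. At least 50% of the windows were shared in 9 of the 202 members without a site, among them Mrpl53, Timm23, Cox16, Atp5g2, Tomm6, Atp5l and Mrpl23, and in 1 of the 42 with one, Gapdh. Whether the other gene lies elsewhere in the genome was not checked, and a gene overlapping the same place would also count as sharing. Where the copies do lie elsewhere, loss of reads with several matches and absence of editing cannot be told apart in genes without a site. The shares listed per role carry this limit.

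Vdac1, a channel of the outer mitochondrial membrane for ATP and other metabolites, had 5 sites. Its 2 CDS sites had counts of 6 and 3, and its 3' UTR sites counts of 4, 3 and 4 between 834 and 851 nt after the stop codon, near the end of an 874-nt 3' UTR. Vdac2 and Vdac3 had no site.

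**Figure D3:**
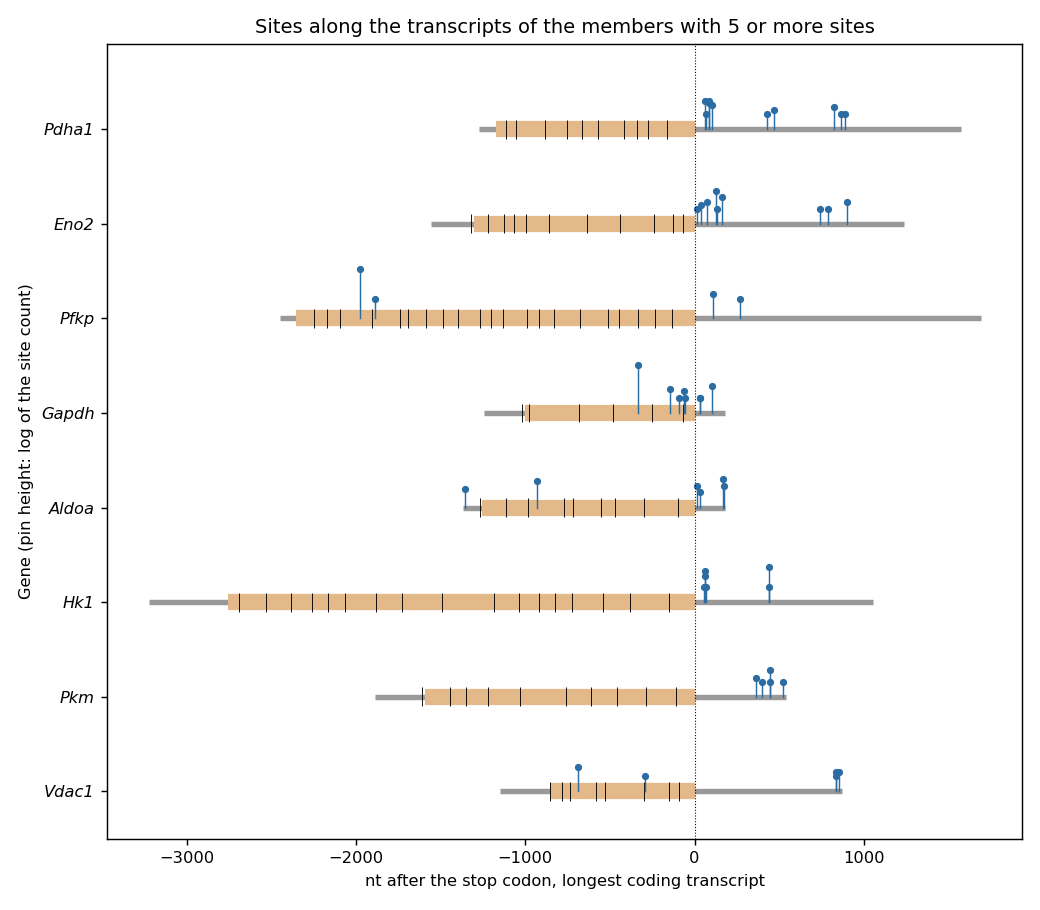
Longest coding transcripts of the 8 members with 5 or more sites, drawn to scale and aligned at the stop codon (x axis in nt), with the CDS as a wide bar, UTRs as thin bars, exon junctions as ticks and sites as pins whose height follows the log of the site count. Pdha1, Eno2, Hk1 and Pkm have pins only after the stop codon, whereas Pfkp, Gapdh and Vdac1 have their tallest pins in the CDS. Sites outside the drawn transcript are not shown.

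Most member sites lay in 3' UTRs. Of the 108 sites, 84 lay in a 3' UTR, or 77.8% (interval 68.8 to 85.2), against 61.9% of all listed sites. The CDS held 14 (13.0%, 7.27 to 20.8), against 26.04% of all, the 5' UTR 3, exons of noncoding transcripts 6 and an intron 1. Site counts were alike in both main regions, with medians of 4 over the 84 sites in a 3' UTR and 4.5 over the 14 in the CDS.

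Within transcripts, the sites lay close behind the stop codon. On the longest coding transcript, 70 of 97 member sites were within 400 nt of the stop codon, 72.2% (interval 62.1 to 80.8), against 30.4% of all 24575 sites placed in this way. The 200 nt after the stop codon held 47 of the 97 (48.5%), against 12.8% of all, and the first 100 nt held 32 (33.0%), against 6.385%. These genes have short 3' UTRs, with a median of 685 nt in members with a site and 322 nt in members without one, against 1825 nt in all protein-coding genes with a site. Where the 3' UTR had 1000 nt or more, 28 of 42 member sites (66.7%) were within 400 nt of the stop codon, against 28.6% of all listed sites in such genes. These 42 sites lay in 13 genes, and Pdha1, Eno2 and Hk1 held 25 of them. Where it was shorter, 42 of 55 (76.4%) were, against 39.3%. The part of 3' UTR length in the closeness to the stop codon was not tested. Measured as a share of 3' UTR length, the median member site in a 3' UTR lay 30.3% of the way along it (quartiles 7.14% and 72.5%), and the median of all such sites 31.15% (quartiles 11.5% and 61.0%). The medians were close, while member sites were spread further towards both ends.

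**Figure D4:**
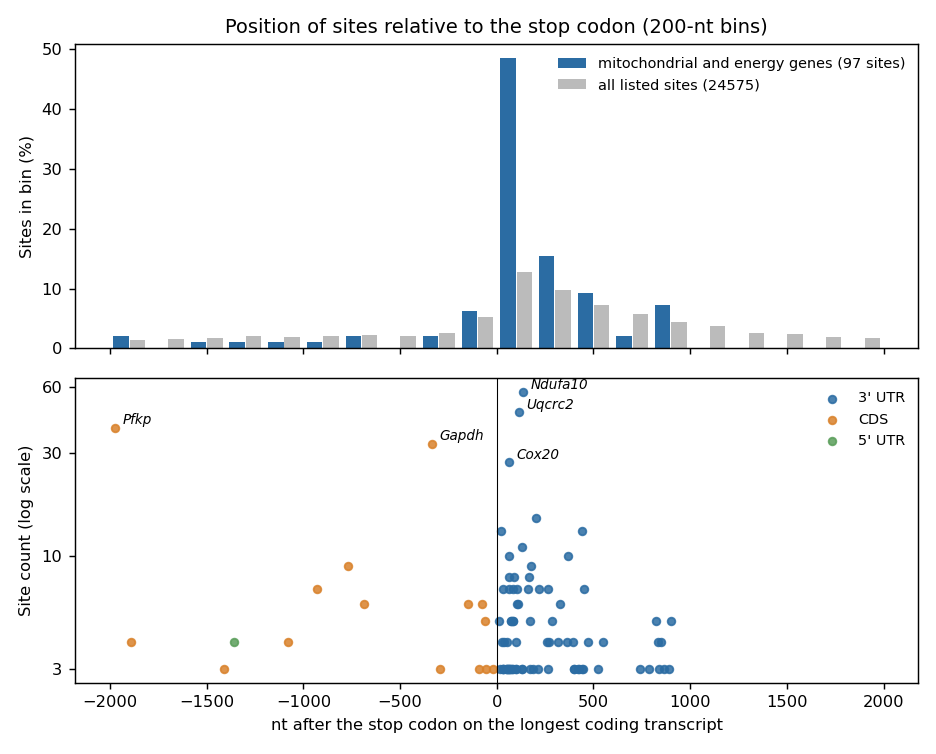
Upper panel, percent of sites per 200-nt bin by distance from the stop codon, for 97 member sites (blue, left) and 24575 listed sites (grey, right); lower panel, site count on a log scale against the same distance for member sites, coloured by region. The bin just after the stop codon holds 48.5% of member sites against 12.8% of all, and the 5 highest counts are labelled; 1 member site, in Timm17a at 4822 nt, is beyond the axis.

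The share of genes with a site rose with 3' UTR length over all protein-coding genes, from 4.13% below 250 nt to 33.8% at 2000 nt or more. Among members the longest class was not the highest. With a 3' UTR below 250 nt, 12 of 93 members (12.9%) had a site, with 1000 nt to under 2000 nt 8 of 21 (38.1%) did, and with 2000 nt or more 8 of 40 (20.0%) did. Per available cytosine, members with a site were close to other genes: of 1319 RAC cytosines in the 3' UTRs of their longest coding transcripts 71 were listed, or 5.38%, against 5.445% in all protein-coding genes with a site. Over whole transcripts the shares were 3.31% and 3.66%. Among genes with a site, the higher share of member sites in 3' UTRs came without a higher listed share of 3' UTR RAC cytosines. Only genes with at least 1 site entered, which raises the lowest possible share in transcripts with few RAC cytosines. The closeness of these shares therefore does not show equal editing per cytosine.

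**Figure D5:**
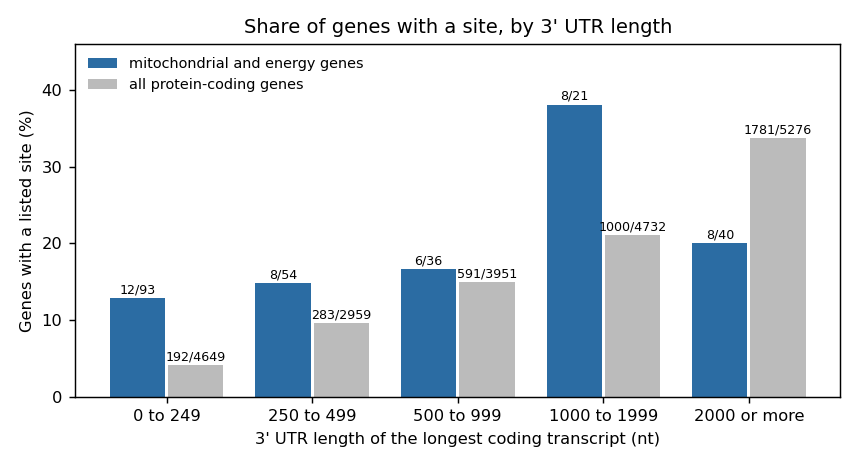
Percent of genes with a listed site in 5 classes of 3' UTR length, for members (blue, left) and for all annotated protein-coding genes (grey, right), with numbers of genes above the bars. Members stand at 12.9% in the shortest class against 4.13% of all, and at 20.0% in the longest against 33.8%.

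The position within exons was also recorded. In the last exon lay 85 of the 97 placed member sites (87.6%, interval 79.4 to 93.4), against 70.4% of all. The other 12 were in exons of 97 to 231 nt, each within 90 nt of a splice junction, with a median of 50.5 nt. Among all listed sites in first or internal exons, 65.5% were within 100 nt of a junction. Their exons were longer, with a median of 204 nt and an upper quartile of 801 nt, against 166 and 184 nt for the member sites. Short exons leave little room away from a junction, so these values do not show that member sites favour junctions.

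The bases around the edited C were mostly RAC, the part of the m6A motif named above. Of 107 member sites with a readable context, 96 (89.7%, interval 82.4 to 94.8) were in RAC, against 77.8% of all, and 61 (57.01%, 47.1 to 66.5) in DRACH, against 55.2%. The 11 outside RAC all had a count of 3, the lowest in the list, and 7 of these 11 lay within 10 nt of another site of the same gene. In the whole list, 0 of 16691 sites with a count of 4 or more and a readable context lay outside RAC. The filters behind the list are not stated, so the RAC share is no evidence of m6A at these sites. Among RAC sites, DRACH made up 63.5% in members and 71.0% in all. AAACA was the commonest context with 16 sites.

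The context GAACG, which is RAC but not DRACH, was at 7 of the 107 sites (6.54%, interval 2.67 to 13.0), against 2.52% of all. It was singled out among the 36 contexts of member sites after their values were seen, and others were also above the share of all sites, such as CAACT at 5.61% against 2.34%. The 7 GAACG sites lay in Gapdh, Atp5b, Vdac1, Tomm70a, Pfkp and Aldoa, the last with 2. Over all regions, 17 of 96 RAC sites of members had a G after the edited C (17.7%, 10.7 to 26.8), near the 15.3% of all RAC sites. In the CDS, 7 of 13 did (53.8%, 25.1 to 80.8), against 28.9% of all such sites, and in the 3' UTR 7 of 74 (9.46%, 3.89 to 18.5), against 9.80%. The windows below show GAACG in 2 coding sequences beside that of Gapdh above.
Atp5b, count 9, CDS, chr10:128086054-128086074, plus strand: gacagatGAACGaaccacctg
Vdac1, count 6, CDS, chr11:52376428-52376448, plus strand: ccaaagtGAACGgcagcctgg

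Some sites with a higher count lay in runs of A. A run of 6 or more A occurred in the 21-base window of 9 of 105 member sites (8.57%, interval 3.995 to 15.65), against 7.08% of all. Among sites with a count of 10 or more it occurred at 3 of 14 in members, in Uqcrc2, Timm9 and Tomm40, and at 9.675% of all. The Tomm40 window is shown for its likeness to that of Uqcrc2, with which it shares the run of A and the context AAACT.
Tomm40, count 10, 3' UTR, chr7:19701341-19701361, minus strand: aaaaaaaAAACTtaaaaaaca
The part of such runs in the counts was not tested.

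High site counts were less common in members, a description with no test. The median was 4 in members and 4 in all sites, with upper quartiles of 7 and 9. A count of 10 or more was reached by 14 of 108 member sites (13.0%, interval 7.27 to 20.8), against 24.7% of all, and a count of 100 or more by 0 (interval up to 3.36%), against 1.99%. Among RAC sites alone the median was 4 in members and 6 in all.

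Neighbouring genes of the same pathways, taken from 5 lists of other genes, held 28 more genes with a site. These lists were chosen with earlier results of these data known, so their shares are no independent evidence. A site was found in 6 of 13 other genes of glycolysis and glucose uptake (46.2%, interval 19.2 to 74.9), 8 of 18 of mitochondrial carriers, cytochrome c and energy buffering (44.4%, 21.5 to 69.2) and 7 of 15 of mitochondrial dynamics and transport (46.7%, 21.3 to 73.4), against 17.5% of all protein-coding genes. The intervals of the other TCA cycle genes, with 4 of 13 (30.8%, 9.09 to 61.4), and of mitochondrial biogenesis and energy sensing, with 3 of 15 (20%, 4.33 to 48.1), held that background. Of these, 5 had more sites than any member. Slc2a1, the glucose transporter of the blood-brain barrier, had 21 with a highest count of 135, Slc25a23, a calcium-dependent mitochondrial carrier, 21 with a highest count of 34, and Slc25a4, an ADP/ATP carrier, 19 with a highest count of 31. Slc25a3, the phosphate carrier, had 14 sites, Dnm1l, which divides mitochondria, 11, Ppargc1a, a coactivator of mitochondrial biogenesis, 10, and the citrate synthase gene Cs 6. The astrocytic aldolase Aldoc had 9, against 7 in Aldoa.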

How the data were processed

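Young mouse cortex was profiled by scDART-seq in 4 sublibraries of 1 cell pool. The submitters' processing notes name STAR 2.7.5 and mm10. The series' design text names the Bullseye pipeline for C-to-U sites, but describes libraries from flow-sorted neuronal nuclei. The authors deposited 1 headerless list in which each site has a whole-number count, with no sign of normalization. No label says what is counted, which filters were applied or how APOBEC1-YTHmut was used.

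Sites were placed on GENCODE M21, which has mm10 coordinates. Of the 108 member sites, 104 matched by symbol and 4 (Atp5pb) through an older symbol, and all 107 exonic ones had a C on their strand. Where transcripts differed, a 3' UTR was preferred to CDS, and CDS to a 5' UTR. Stop codon distances used the longest coding transcript, which need not be the expressed one. Symbols with several gene IDs counted once. The placement was tested on simulated data, and region, context and stop codon distance were recovered for all 600 sites placed in 200 genes. Those genes have a single transcript each, so the choice between transcripts was not tested. Intervals are exact Clopper-Pearson 95% intervals from SciPy 1.17.1 and cover counting error only, since sites of a gene are not independent. No test was run, as 1 list has no replicates.

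Members and lists were chosen with earlier results of these data known. Values are given for up to 5 genes with the most sites per role, all Vdac and Hk genes, the 15 sites with the highest counts, sites near a stop codon with a count of 10 or more, and up to 3 genes per pathway list. Tomm20, Idh3g, Pkm and Ldhb fall outside that rule and, like the runs of A, were chosen after their values were seen; the tissue markers were added after the list was first examined. Alternatives varied the region rule, transcript, count minimum, sites per gene and genes left out.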

Additional observations from a re-analysis of the deposited data

How the results depend on the processing

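The 3' UTR and CDS shares, with the region rule, the transcript, the count minimum, 1 site per gene, Pdha1 or Gapdh changed or left out, stayed inside their intervals, at 75.5% to 83.5% and 9% to 16.7%. The alternative without Gapdh was chosen after seeing the data. The share near the stop codon was 54.6% in a window of 200 nt and 69.7% to 75.7% under the others. Counting RAC in place of DRACH gave 89.7%, and DRACH with 1 site per gene 69.05%. Leaving out the sites outside RAC gives 63.5% (interval 53.1 to 73.1), and the cause of the differences was not tested. Under the others the DRACH share was 54.6% to 61.5%. Members with a site numbered 33 at a count of 4 or more, 11 at 10 or more and 40 without assembly factors. The median site count was 5.5 with 1 site per gene, which keeps the highest, and 4 otherwise. The median of 1 site per gene held after merging sites within 10 nt and at a count of 4 or more. No paired analysis was possible because the deposited sites are not split by group or replicate, and no replicate could be left out. Read depth is unknown, so the precision of single site counts cannot be given.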
